A study of Mus musculus with 12 samples.

Results

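The colony-stimulating factors and their receptors were taken as 9 listed genes, matched by Ensembl identifier in tumors and by symbol in macrophages, of 22274 rows in the tumor table and 19496 named rows in the macrophage table. They are the ligands Csf1 (M-CSF), Il34, Csf2 (GM-CSF) and Csf3 (G-CSF), and the receptor genes Csf1r, Csf2ra, Csf2rb, Csf2rb2 and Csf3r. Both tables held a row for each of the 9. In GENCODE vM21 (GRCm38) Csf1 lies on chromosome 3, Csf2 and Csf3 on 11, Il34 on 8, Csf1r on 18, Csf2ra on 19, Csf2rb and Csf2rb2 on 15 and Csf3r on 4. Gene expression had been measured by RNA-seq in 12 mouse libraries, 3 in each of 4 groups. The tumors were MC38, a mouse colon adenocarcinoma line, grown under the skin of C57BL/6 mice from cells with a control hairpin (shCtrl, labelled WT) or a hairpin against Chrebp (shChrebp, labelled Chrebp knockdown). Chrebp, gene symbol Mlxipl, is a transcription factor that responds to glucose metabolites. The labels give neither the number of hairpins nor the age or sex of the mice. The macrophages were bone-marrow-derived (BMDM), labelled PBS or Choline. By the series text BMDM were exposed to IFN-γ and LPS (4 h) before a 24 h exposure to 200 µM choline, and the PBS cultures are not described separately. Whether the replicates of a group came from different mice or dishes is not stated. The p-values therefore cover the variation among these libraries, part or all of which could be technical.

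CSF1 and IL-34 are unrelated in sequence but share a receptor, the tyrosine kinase CSF1R, on which most macrophages depend for survival and growth. GM-CSF binds a specific alpha chain, encoded by Csf2ra, that signals through the beta common chain encoded by Csf2rb, by way of JAK2 and STAT5. Mice carry a further beta chain gene, Csf2rb2, whose product serves the IL-3 receptor. G-CSF acts through a single-chain receptor encoded by Csf3r and drives the formation and release of neutrophils. Macrophages make G-CSF and GM-CSF after contact with LPS, and tumor cells and stromal cells are common sources of CSF1.

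The mouse beta chain genes lie near each other on chromosome 15 in opposite orientation, and their sequences matter for how far their reads can be told apart. Their longest annotated coding sequences were identical at 2503 of 2628 aligned bases (95.2%), and the longest identical run had 242 bases. Of all 100-base windows, 6.96% of those in Csf2rb occurred unchanged in Csf2rb2 and 7.20% of those in Csf2rb2 occurred in Csf2rb. At 50 bases the shares were 18.4% and 19.0%. The split of reads between the pair is therefore uncertain in part. The 60 coding bases below, from position 304 in Csf2rb and 307 in Csf2rb2 (GRCm38 annotation), are shown because they hold 13 differences, which are in capitals.
Csf2rb: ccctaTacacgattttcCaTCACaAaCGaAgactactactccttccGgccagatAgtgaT
Csf2rb2: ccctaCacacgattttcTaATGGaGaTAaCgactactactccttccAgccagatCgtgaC

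Promoters of 3 members whose RNA rose with choline are given next, each as the 250 bases before the start of the gene in RefSeq (GRCm38.p6), 5′ to 3′ on the gene's strand, with motif matches in capitals. Csf1 (minus strand, chr3:107760470-107760719) holds an NF-kappaB motif, read on the opposite strand and searched on both strands as GGGA, any base and TTTCC, whose first base is at position −154 (−1 is the base before the start). Of 27025 promoters of this length, 91 (0.337%) hold that motif. Csf2ra (minus strand, chr19:61228419-61228668) holds the PU.1 motif GAGGAA at −14 and again at −8, a motif found in 23.1% of promoters. Csf2rb2 (minus strand, chr15:78305722-78305971) holds a PU.1 motif at −167 on the other strand and a STAT motif, TTCNNNGAA, at −15, the latter found in 7.18% of promoters.
Csf1: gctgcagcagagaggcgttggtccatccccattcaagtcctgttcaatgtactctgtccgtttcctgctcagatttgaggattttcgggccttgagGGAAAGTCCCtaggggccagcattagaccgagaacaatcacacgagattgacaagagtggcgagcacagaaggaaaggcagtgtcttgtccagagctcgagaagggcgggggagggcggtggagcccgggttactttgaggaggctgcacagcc
Csf2ra: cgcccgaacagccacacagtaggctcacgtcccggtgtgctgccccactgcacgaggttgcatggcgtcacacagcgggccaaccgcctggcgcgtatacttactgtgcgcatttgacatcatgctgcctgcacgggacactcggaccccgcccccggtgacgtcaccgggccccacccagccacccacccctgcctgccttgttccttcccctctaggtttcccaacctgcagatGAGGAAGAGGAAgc
Csf2rb2: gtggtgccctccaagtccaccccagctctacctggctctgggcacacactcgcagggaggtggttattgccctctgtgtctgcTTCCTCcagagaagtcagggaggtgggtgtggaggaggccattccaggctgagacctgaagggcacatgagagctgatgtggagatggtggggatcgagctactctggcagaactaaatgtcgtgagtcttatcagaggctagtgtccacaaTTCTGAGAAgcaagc
The E-box CACGTG was searched as these exact letters only. Chrebp with its partner Mlx binds E-boxes in pairs, and paired or imperfect E-boxes were not searched for. The exact sequence was in none of the 5 member promoters examined (those 3, Csf2 and Csf3r), against 6.05% of all promoters. Nor did these 5 hold a TATA box (TATAAA, 13.0%), AP-1 (TGANTCA) or the interferon-stimulated response element (GAAA, any pair of bases and GAAA), the latter 2 found in 6.87% and 3.04% of promoters. The Csf2 window (minus strand, chr11:54249900-54250149) lies upstream of the GENCODE start at 54249667, and the bases between were not examined. The windows of Csf3r (chr4:126024409-126024658) and Csf2ra run past the GENCODE starts, at 126024550 and 61228429. Csf3r, which was below the filter in BMDM, also holds a PU.1 motif, at −86. Csf2rb, which was higher with choline, was not among the 5 examined. These matches describe letters in these windows only.

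Tumor libraries held 15844794 to 24181897 counts and BMDM libraries 34960295 to 35393041 reads, the latter recovered from the deposited FPKM values (fragments scaled by gene length and library size). The hairpin's target could not be checked at this depth, since Mlxipl held 1 to 3 counts in every tumor library of either group. The library shCtrl 1 stood apart from the other shCtrl libraries on the second principal component of the tumor table (15.6% of the variance) at 19.0 against −8.02 and −14.6, and it held 140 counts of the epithelial marker Epcam against 6 to 17 in the other 5 libraries. Most leukocyte markers were scarce in the tumor libraries: 12 of 15 macrophage markers were under 1 FPKM, among them Ptprc at 4 to 11 counts and Adgre1 at 0 or 1. Cd68 and Cd14 were not scarce, with shCtrl means of 19.9 and 13.8 FPKM. All 9 T and NK cell markers were under 1 FPKM, and 4 of them (Cd3d, Cd3e, Cd8a and Ncr1) were at 0 in all 6. The 6 endothelial markers were likewise under 1 FPKM. In BMDM, 11 of 12 macrophage markers with a row were above 1 FPKM, while Mrc1 averaged 0.0107 FPKM with PBS and 0.00356 FPKM with choline. Bulk RNA cannot tell fewer cells of a type from less RNA per cell.

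In the tumor libraries, ligands for CSF1R were abundant and the receptors were close to the counting floor. Most leukocyte markers and the 6 endothelial markers were under 1 FPKM as well, so these libraries tell little about receptor RNA in such cells. Only Csf1 and Il34 passed the filter on low counts, and the other 7 members had at most 11 counts in any library. Csf1 RNA fell in shChrebp tumors and was the 1 member called of the 2 tested. Over all genes tested, 4505 of 11780 (38.2%) were called in either direction, 18.6% higher and 19.7% lower, so a called member is common in this comparison. Calls were made at a Benjamini-Hochberg adjusted p of 0.05 in edgeR's quasi-likelihood test.

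Csf1, the growth factor that sustains macrophages, was at 129, 133 and 134 FPKM in shCtrl 1, 2 and 3, and at 73.8, 69.9 and 78.9 FPKM in shChrebp 1, 2 and 3. Every shChrebp library was below every shCtrl library, and the spread within a group was small beside the gap. The group means were 132 ± 2.53 and 74.2 ± 4.52 FPKM (SD, n = 3). On counts this was 0.566 times the control level, with a 95% interval of 0.539 to 0.595. In 481 of 11780 genes the fall was larger. Over the 13 alternative settings the log2 fold change of Csf1 lay between −0.85 and −0.79, and the fall was called in each. Of the fibroblast markers, 5 of 6 tested were lower in shChrebp, against 19.7% of all genes tested. The list summed to 320 to 333 FPKM in shCtrl against 207 to 210 FPKM in shChrebp, mostly from Col1a2 and Col3a1. Their means were 159 and 132 FPKM in shCtrl and 137 and 47.0 FPKM in shChrebp. Lum, Fap and Postn were under 1 FPKM and were not tested. Of 3 macrophage markers tested 1 fell, Cd68, from 19.9 ± 0.675 to 9.29 ± 0.466 FPKM (SD, n = 3), a log2 fold change of −1.10 ± 0.08, while Cd14, with means of 13.8 and 14.8 FPKM, was not called (edgeR adjusted p = 0.313). The macrophage list summed to 35.5 to 38.9 FPKM in shCtrl and 25.9 to 28.1 FPKM in shChrebp, mostly from Cd68 and Cd14. Lyz2, with means of 2.18 and 2.04 FPKM, was not called (edgeR adjusted p = 0.827). The other 12 markers of the list were under 1 FPKM. The part of these markers in the fall of Csf1 was not tested.

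Il34, the other ligand of CSF1R, was at 19.6, 21.0 and 22.1 FPKM in shCtrl and at 18.1, 19.8 and 19.7 FPKM in shChrebp. The ranges of the groups overlapped. The log2 fold change was −0.13 ± 0.06 (SE) with an interval of −0.26 to −0.001 and an edgeR adjusted p of 0.106, so the difference was not called. In the 13 alternatives the log2 fold change of Il34 ran from −0.17 to −0.09 and the adjusted p from 0.0519 to 0.379. Il34 overlaps the antisense genes Gm15894 and Gm15895, and since use of strand is not given in the sources used here, their reads cannot be told apart.

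Per length, Csf1 exceeded Il34 in every tumor library. The FPKM ratio of Csf1 to Il34 was 6.59, 6.34 and 6.06 in shCtrl and 4.07, 3.53 and 4.01 in shChrebp. The ratio was lower in all 3 shChrebp libraries than in any shCtrl library, with means of 6.33 ± 0.267 and 3.87 ± 0.294 (SD, n = 3) and an exact two-sided permutation p of 0.1, the smallest that 3 against 3 allow.

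Csf2, which encodes GM-CSF, had 7, 3 and 2 counts among the shCtrl libraries, against 1, 0 and 0 with the Chrebp hairpin. The groups did not overlap, but shCtrl 1, the library that stands apart, held 7 of the 12 control counts. Summed over libraries and scaled by depth, the shChrebp rate was 0.0742 times the shCtrl rate, with an exact 95% interval of 0.00174 to 0.502 (exact binomial p = 0.00113). This test compares the libraries and covers counting error only. Leaving out each library in turn, a step chosen after the counts were seen, gave ratios up to 0.127, the value without shChrebp 2. Without shCtrl 1 the ratio was 0.123, the counts were 5 against 1, and the interval of 0.00261 to 1.10 included 1 (exact binomial p = 0.0332). With the low-count filter removed, edgeR gave Csf2 a log2 fold change of −3.32 ± 1.35 and an adjusted p of 0.0491, while DESeq2 gave an unadjusted p of 0.0346 and no adjusted p. An antisense gene, Gm12223, overlaps Csf2.

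Csf3, which encodes G-CSF, had 0, 0 and 2 counts among shCtrl libraries and 0, 2 and 0 among shChrebp libraries. At 2 counts in each group no difference was detectable at this depth.

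The receptor genes were as sparse. Csf1r, whose product binds both CSF1 and IL-34, had 11, 0 and 4.32 estimated counts in shCtrl and 4, 5 and 5 in shChrebp. A single library, shCtrl 1, held most of the control counts, and the groups overlapped. The summed rates differed by a ratio of 0.831 with an exact interval of 0.372 to 1.85. Csf1r overlaps Hmgxb3, which lies on the opposite strand.

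Csf2ra, the GM-CSF alpha chain gene, had 0, 0 and 2 counts in shCtrl against 3, 0 and 0 in shChrebp. Csf2rb had 2, 0 and 2 against 5, 0 and 2, and Csf2rb2 had 0, 1 and 1 against 1, 1 and 0. These groups overlapped. Csf3r, the G-CSF receptor gene, had 2 counts in each shCtrl library and 4, 4 and 5 in shChrebp. The counts of Csf3r did not overlap, yet the ratio of rates, 1.93, had an interval of 0.684 to 6.19 (exact binomial p = 0.250).

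**Figure D1:**
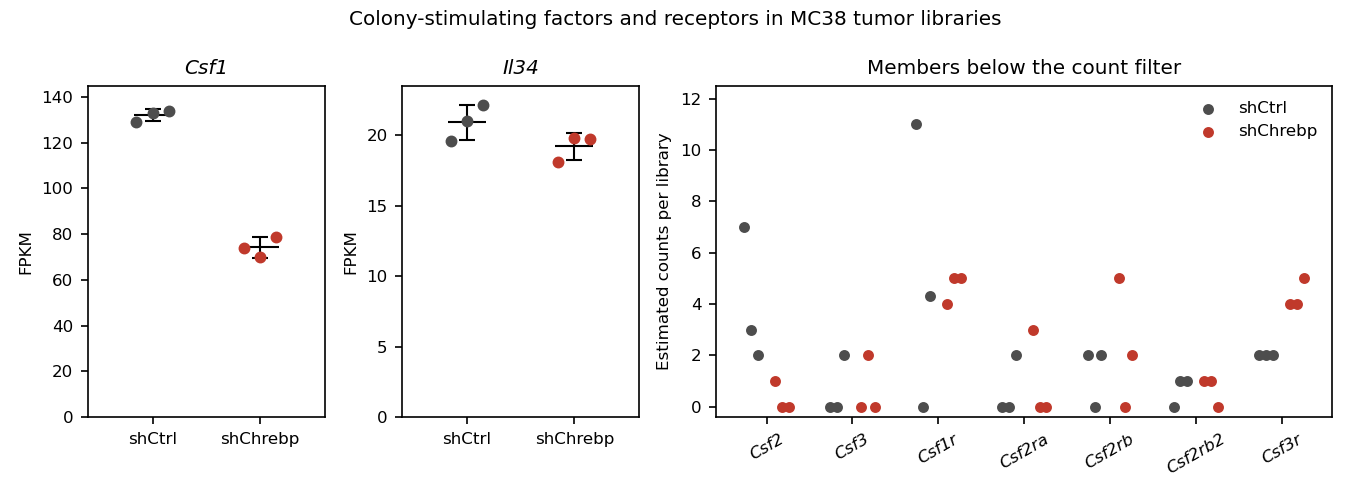
FPKM of Csf1 and Il34 and estimated counts of the other 7 genes in each of the 6 tumor libraries. Points are libraries and bars are the mean ± SD of 3; the shChrebp points of Csf1 (69.9 to 78.9 FPKM) lie below the shCtrl points (129 to 134 FPKM), and no gene in the right panel exceeds 11 counts.

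In BMDM, Csf3 and Csf1r were abundant and the ligands of CSF1R were scarce. With choline, Csf1 and the 3 GM-CSF receptor family genes were higher and Csf3 was lower. Of the 9 members 7 passed the filter of 1 FPKM in at least 3 libraries, and 5 of the 7 were called by limma on log2(FPKM + 0.1), 4 higher and 1 lower. Over all 10028 genes tested 57.4% were called, 28.2% higher and 29.2% lower, so the number of members called is close to the background. The sizes of the changes differed widely among the members, and the median absolute log2 fold change of all genes tested was 0.21. Macrophage markers also moved, with 5 of 11 tested higher and 2 lower. Their summed level was 4351 to 4543 FPKM with PBS against 5513 to 5950 FPKM with choline. Most of that sum was Lyz2, with means of 2587 and 3791 FPKM. Cd68, Itgam, Tyrobp and Laptm5 were not called, and Cd14 and Spi1 were the 2 lower. The part of these markers in the changes of the members was not tested.

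Csf1 was at 0.339, 0.400 and 0.254 FPKM in the PBS libraries (1, a and b, of which a and b carry no replicate number) and at 2.10, 2.01 and 2.12 FPKM with choline. The choline libraries lay together, well above all PBS libraries. The recovered reads were 58, 68 and 43 with PBS and 359, 343 and 359 with choline. On reads the level with choline was 6.28 times that with PBS, with a 95% interval of 5.06 to 7.79 and an edgeR adjusted p of 1.78e-09. On log2(FPKM + 0.1) the log2 fold change of Csf1 was 2.35 ± 0.15 (limma adjusted p = 1.30e-06), and only 2 of 10028 genes tested rose more. Csf1 passed the filter through the choline libraries alone, so it could only enter the test as a gene that was higher there. On log2(FPKM + 1) the log2 fold change of Csf1 was 1.21, since a larger pseudocount shrinks the change of a low gene.

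Il34 was scarce, at 6, 6 and 5 reads with PBS and 8, 3 and 3 with choline. The groups overlapped, and the ratio of the summed rates was 0.824 with an exact interval of 0.376 to 1.78.

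Csf2, the GM-CSF gene, was at 1.12, 1.06 and 1.55 FPKM with PBS and 1.03, 1.19 and 0.623 FPKM with choline. The groups overlapped, with 28 to 70 reads per library. Its log2 fold change was −0.38 ± 0.22, with an interval from −0.88 to 0.12 and a limma adjusted p of 0.166. Leaving out each library in turn gave −0.55, without Choline 2 (limma adjusted p = 0.0726), to −0.13, without Choline 3 (0.546). The log2 fold change was −0.22 without PBS b (limma adjusted p = 0.424) and −0.21 on log2(FPKM + 1) (0.165). The interval of Csf2 therefore spans a fall to 0.543 times the PBS level and a rise to 1.08 times it.

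Csf3 was the most abundant member per length, at 318, 318 and 316 FPKM with PBS and at 263, 225 and 222 FPKM with choline. All 3 choline libraries were below all PBS libraries, and they spread more (SD 22.8 against 1.16 FPKM). The level of Csf3 with choline was 0.743 times that with PBS, with an interval of 0.678 to 0.814 and a limma adjusted p of 2.10e-04. The FPKM ratio of Csf3 to Csf1 went from 941, 796 and 1246 with PBS to 125, 112 and 105 with choline, with no overlap (exact permutation p = 0.1).

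Csf1r was at 198, 211 and 200 FPKM with PBS and at 197, 194 and 183 FPKM with choline. The choline values lay just under the PBS values, with 197.4 against 197.6 FPKM at the border. The log2 fold change of Csf1r was −0.08 ± 0.04 with an interval of −0.18 to 0.01 and a limma adjusted p of 0.112, which ran from 0.0573 to 0.343 in the alternatives, with log2 fold changes of −0.11 to −0.05. Csf1r was therefore not called, while its ligand gene Csf1 rose in the same libraries.

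Csf2ra was at 2.16, 2.45 and 2.19 FPKM with PBS and at 3.18, 2.96 and 2.72 FPKM with choline. All choline libraries were above all PBS libraries. The level of Csf2ra with choline was 1.29 times that with PBS, with an interval of 1.12 to 1.48 and a limma adjusted p of 0.00555.

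Csf2rb, the beta common chain gene, was at 6.14, 6.70 and 6.84 FPKM with PBS and at 7.77, 7.29 and 7.51 FPKM with choline. The groups did not overlap, with 7.29 against 6.84 FPKM at the border. The log2 fold change was 0.20 ± 0.06 (limma adjusted p = 0.0205). The call ended on leaving out either of 2 libraries, as the adjusted p was 0.0892 without PBS 1 and 0.0624 without Choline 1.

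Csf2rb2, the gene of the IL-3-specific beta chain, was at 2.34, 2.55 and 2.43 FPKM with PBS and at 3.77, 3.72 and 3.98 FPKM with choline. The groups were clearly separate. The level of Csf2rb2 with choline was 1.54 times that with PBS, with an interval of 1.38 to 1.73 and a limma adjusted p of 6.38e-05. The FPKM ratio of Csf2rb2 to Csf2rb was 0.381, 0.380 and 0.355 with PBS and 0.485, 0.511 and 0.530 with choline. The ratio was higher in every choline library, with means of 0.372 ± 0.0148 and 0.509 ± 0.0228 (SD, n = 3) and an exact permutation p of 0.1. The 60-base stretches above show 1 site where reads of the pair differ. The shares of identical windows cover only the coding sequences, 2688 bases of Csf2rb and 2634 of Csf2rb2. Their transcripts have 4900 and 4740 bases, and the noncoding parts were not compared.

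Csf3r was scarce, at 18, 23 and 10 reads with PBS and at 21, 26 and 36 with choline, or 0.104 ± 0.0400 and 0.170 ± 0.0478 FPKM (SD, n = 3). The groups overlapped. Summed over libraries the rate with choline was 1.63 times that with PBS (exact interval 1.14 to 2.35, exact binomial p = 0.00568), which covers counting error only. With the spread between libraries taken into account, edgeR on the recovered reads gave a log2 fold change of 0.70 ± 0.36 and an adjusted p of 0.114. Without PBS library b or without Choline 3 the summed ratio of Csf3r fell to 1.35 or 1.38, with exact binomial p of 0.120 and 0.122.

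**Figure D2:**
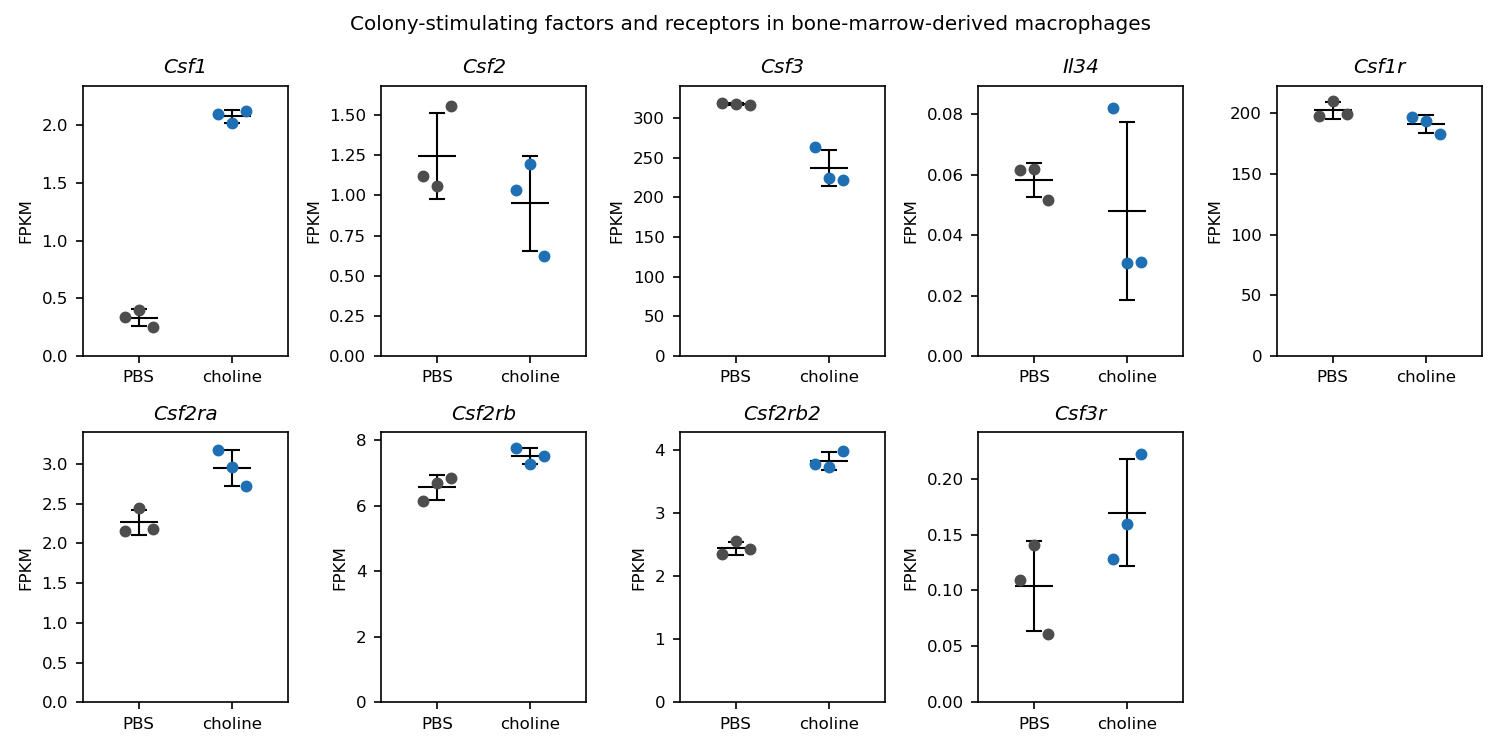
FPKM of the 9 genes in the 6 BMDM libraries, each panel with its own axis from 0. Points are libraries and bars are the mean ± SD of 3; Csf1, Csf2ra, Csf2rb and Csf2rb2 are higher in all choline libraries, Csf3 is lower, and Csf2, Il34 and Csf3r overlap.

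**Figure D3:**
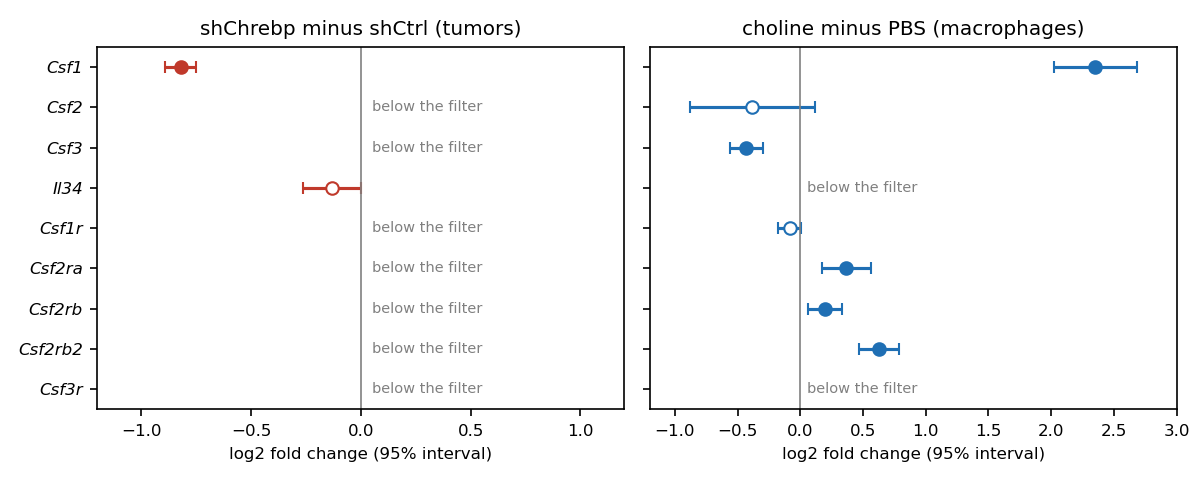
Log2 fold change with its 95% interval for each member tested, from edgeR in tumors and limma on log2(FPKM + 0.1) in BMDM; filled points were called. Csf1 lies at −0.82 in tumors and 2.35 in BMDM, and the other called members lie between −0.43 and 0.63.

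Csf1 was thus lower in shChrebp tumors and higher in choline-treated BMDM. The tables were normalized separately and came from different cells, so the pair of changes is given side by side and the difference between them was not tested.

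Set in order of FPKM with PBS, the members ran Csf3 (318), Csf1r (203), Csf2rb (6.56), Csf2rb2 (2.44), Csf2ra (2.26), Csf2 (1.25), Csf1 (0.331), Csf3r (0.104) and Il34 (0.0584). The ranges of Csf2rb2 and Csf2ra overlapped, as did those of Csf3r and Il34, and the other neighbours did not. With choline the order was the same but for Csf1, which at 2.08 FPKM stood above Csf2 at 0.950 FPKM. No neighbours overlapped there.

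The place of Csf2ra in that order depends on the length behind its FPKM. The deposited values of Csf2ra correspond to a length of 13718 bases, 7.42 times its longest annotated coding transcript of 1849 bases. If all its reads fell in the coding transcript, its level would be 16.8 FPKM with PBS and 21.9 FPKM with choline. That is above Csf2rb (6.53 and 7.49 FPKM at its own coding length). Where the reads fall is not known, and 13718 bases also exceeds the annotated span of Csf2ra, 4473 bases. Its place in the order is therefore uncertain. The lengths of the other members were 0.824 to 1.60 times those of their coding transcripts. A fixed length does not alter the comparison of choline with PBS within a gene.

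**Figure D4:**
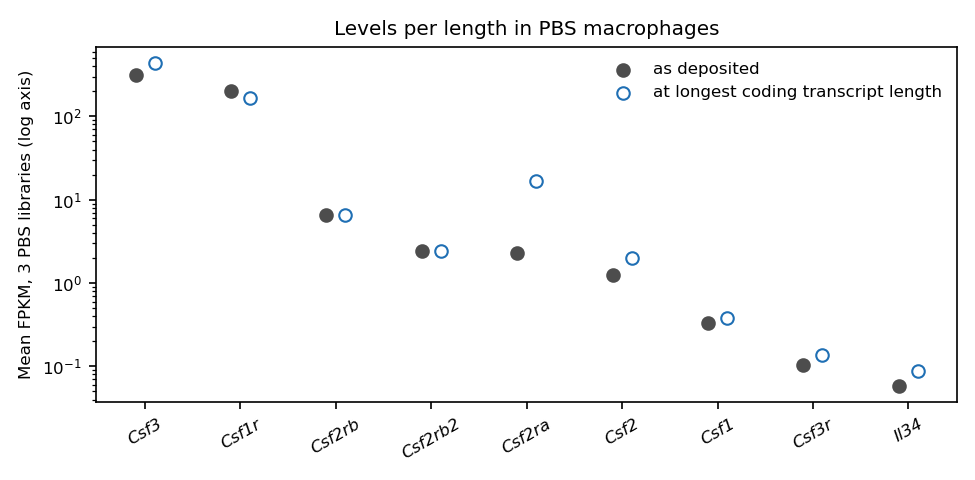
Mean FPKM of the 9 genes in the 3 PBS libraries on a log axis, as deposited (filled) and recomputed for the longest annotated coding transcript (open). Csf2ra moves from 2.26 to 16.8 FPKM, and the other genes move by at most 1.60 times.

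Genes that signal downstream of these receptors, or control the members' RNA, were examined as lists. Over all genes tested, the median log2 fold change was −0.003 in tumors and 0.003 in BMDM. Of the list genes tested, 35 of 86 were called in tumors and 52 of 81 in BMDM. The shares of all genes called were 38.2% and 57.4%, so these totals are not far from the background. Single lists lay on both sides of it. In tumors 1 of 10 JAK-STAT genes was called, and in BMDM 13 of 15 regulators of CSF genes were. The JAK-STAT genes of the GM-CSF and G-CSF receptors differed little in tumors, with 1 of 10 tested lower and none higher, Stat3 at −0.30 ± 0.05 (edgeR adjusted p = 1.04e-05). In BMDM 2 of 11 rose and 3 fell. Jak2, the kinase bound to the beta common chain, rose from 8.77 ± 0.201 to 19.3 ± 0.356 FPKM (SD, n = 3), a log2 fold change of 1.13 ± 0.05 (limma adjusted p = 1.42e-07). The phosphatase gene Ptpn6, which restrains these receptors, was at −0.67 ± 0.04. Stat5a and Stat5b, the main GM-CSF signal carriers, were at −0.03 ± 0.08 and −0.08 ± 0.07 in BMDM, with limma adjusted p-values of 0.772 and 0.335.

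Target and feedback genes of STAT5 and STAT3 were 4 higher and 1 lower of 9 tested in tumors (median 0.14). In BMDM 1 was higher and 3 were lower of 6 tested (median −0.14). The shares of all genes called were 38.2% in tumors and 57.4% in BMDM. In BMDM Pim2, a survival kinase gene, fell from 25.5 ± 2.02 to 9.76 ± 0.982 FPKM, a log2 fold change of −1.38 ± 0.08 (limma adjusted p = 1.16e-06). Socs3, the feedback inhibitor of the G-CSF receptor, was at −0.39 ± 0.05 in BMDM and at 0.24 ± 0.07 in tumors, and was called in both. Cish, the classical STAT5 feedback gene, averaged 0.211 FPKM with PBS and 0.0815 FPKM with choline, and with Socs1 and Socs2 was under the filter.

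Of 17 CSF1R signalling mediators tested in BMDM, 9 fell and 1 rose, with a median of −0.24, against 3 higher and 2 lower of 14 in tumors (median 0.04). In BMDM 57.4% of all genes tested were called and 29.2% were lower, and in tumors 38.2% were called. The 10 called of 17 in BMDM and the 5 of 14 in tumors were near the shares called. The adaptor gene Dok2 fell from 17.5 ± 0.533 to 9.25 ± 0.508 FPKM (−0.92 ± 0.05, limma adjusted p = 1.00e-06). The phosphoinositide 3-kinase subunit genes Pik3cd and Pik3cg, typical of leukocytes, were at −0.55 ± 0.07 and −0.51 ± 0.05. Ptpn6 is on this list as well as the one before.

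Transcription factors of Csf1r and macrophage identity were split in BMDM, with 4 higher and 4 lower of 9. Of all genes tested there, 28.2% were higher and 29.2% lower. Spi1, which encodes PU.1, was at 151 ± 5.49 FPKM with PBS and 126 ± 4.43 FPKM with choline, a log2 fold change of −0.26 ± 0.04 (limma adjusted p = 4.57e-04). Irf8 fell by 0.69 ± 0.09 on the log2 scale, and Ets2 rose by 0.51 ± 0.03. In tumors Spi1 was at 0.0627 and 0.0363 FPKM, near 0 like Csf1r. Of 12 macrophage genes that CSF1 maintains, 6 had a row in BMDM and 3 were tested. Cx3cr1, a chemokine receptor gene, fell from 19.1 ± 0.494 to 4.01 ± 0.414 FPKM (−2.23 ± 0.07, limma adjusted p = 6.34e-08). Adgre1, a classical macrophage surface marker gene, rose by 0.34 ± 0.04 on the log2 scale. Siglec1, at −0.005 ± 0.06, was not called (limma adjusted p = 0.948).

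A list of regulators of CSF genes held NF-kappaB, C/EBP, AP-1, ETS and NFAT factors, the NF-kappaB inhibitor gene Nfkbia and the cytokine receptor gene Il17ra. In tumors 9 of its 16 members fell and 1 rose (median −0.15), and in BMDM 9 of 15 rose and 4 fell (median 0.14). Of all genes tested, 19.7% were lower in tumors and 28.2% were higher in BMDM. The 9 that fell in tumors include Nfkbia, and the 4 that fell in BMDM include Il17ra. In tumors Nfkbiz, whose product directs NF-kappaB to secondary response genes, was at −1.17 ± 0.06 (edgeR adjusted p = 5.35e-17), and Cebpd and Fosl1 were at −0.96 ± 0.07 and −0.59 ± 0.05. In BMDM Nfkbiz rose by 0.57 ± 0.04 on the log2 scale and Jun by 0.43 ± 0.04, while the NFAT genes Nfatc1 and Nfatc2 were at −0.81 ± 0.06 and −0.79 ± 0.09.

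The list of decay factors of AU-rich CSF mRNAs also holds RNA-binding proteins with other roles, among them Elavl1, Tia1 and Tial1. It had 4 higher and 2 lower of 12 in tumors, and 1 higher and 4 lower of 12 in BMDM. Of all genes tested, 38.2% were called in tumors and 57.4% in BMDM. Zc3h12a, which encodes the nuclease Regnase-1, was called lower in both, at −0.69 ± 0.07 in tumors and −0.37 ± 0.04 in BMDM. Zfp36, which encodes tristetraprolin, a factor that destabilizes Csf2 mRNA, was at 0.34 ± 0.09 in tumors (edgeR adjusted p = 0.00418) and at 0.03 ± 0.04 in BMDM (limma adjusted p = 0.633). A list of 4 genes held the sheddase genes Adam17 and Adam10, whose products cut proteins such as CSF1 and its receptor from the cell surface, and the rhomboid genes Rhbdf1 and Rhbdf2, whose products regulate ADAM17. Adam17 and Adam10 rose in BMDM by 0.41 ± 0.03 and 0.22 ± 0.06 on the log2 scale. In tumors they were at −0.18 ± 0.04 and 0.14 ± 0.04. Neither rhomboid gene was called in either comparison. The tumor call of Adam10 ended without shCtrl 2 (edgeR adjusted p = 0.0831) or shChrebp 2 (0.140), and its BMDM call ended without Choline 3 (limma adjusted p = 0.0559) or the low-value filter (0.0552).

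Among other receptors and growth factors, Sdc1, an alternative IL-34 receptor gene, was lower in both comparisons, at −0.35 ± 0.04 in tumors and −0.70 ± 0.08 in BMDM. Il3ra and Il5ra, the partner alpha chains of the beta common chain, were under 1 FPKM in tumors. In BMDM they had no row under these symbols and could not be analysed. Of 15 genes typical of neutrophils under G-CSF, 6 were tested in tumors and 2 fell, against 19.7% of all genes tested. Lcn2 was at −2.53 ± 0.21 and Mmp9 at −1.64 ± 0.34. Both are also made by cells other than neutrophils. Mmp9 was low, at 0.510 ± 0.0597 FPKM in shCtrl and 0.162 ± 0.0478 FPKM in shChrebp (SD, n = 3). On log2(FPKM + 1) its log2 fold change was −0.38. The calprotectin genes S100a8 and S100a9 were at 0.40 ± 0.32 and 0.05 ± 0.26 in tumors and were not called, nor were Ltf and Ngp. In BMDM 3 were tested, of which Lcn2 rose by 1.24 ± 0.03 on the log2 scale, S100a8 was lower at −0.54 ± 0.11 and Mmp9 was not called. In BMDM the stem cell factor gene Kitl and the Flt3 ligand gene Flt3l were at 0.75 ± 0.17 and 0.44 ± 0.10 on the log2 scale, both called higher. Kitl, at 0.774 ± 0.197 FPKM with PBS and 1.35 ± 0.170 FPKM with choline (SD, n = 3), passed the filter through the choline libraries alone, so it could only enter the test as a gene that was higher there. The Flt3l call ended on recovered reads, with an adjusted p of 0.0517 by edgeR and 0.133 by DESeq2.

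**Figure D5:**
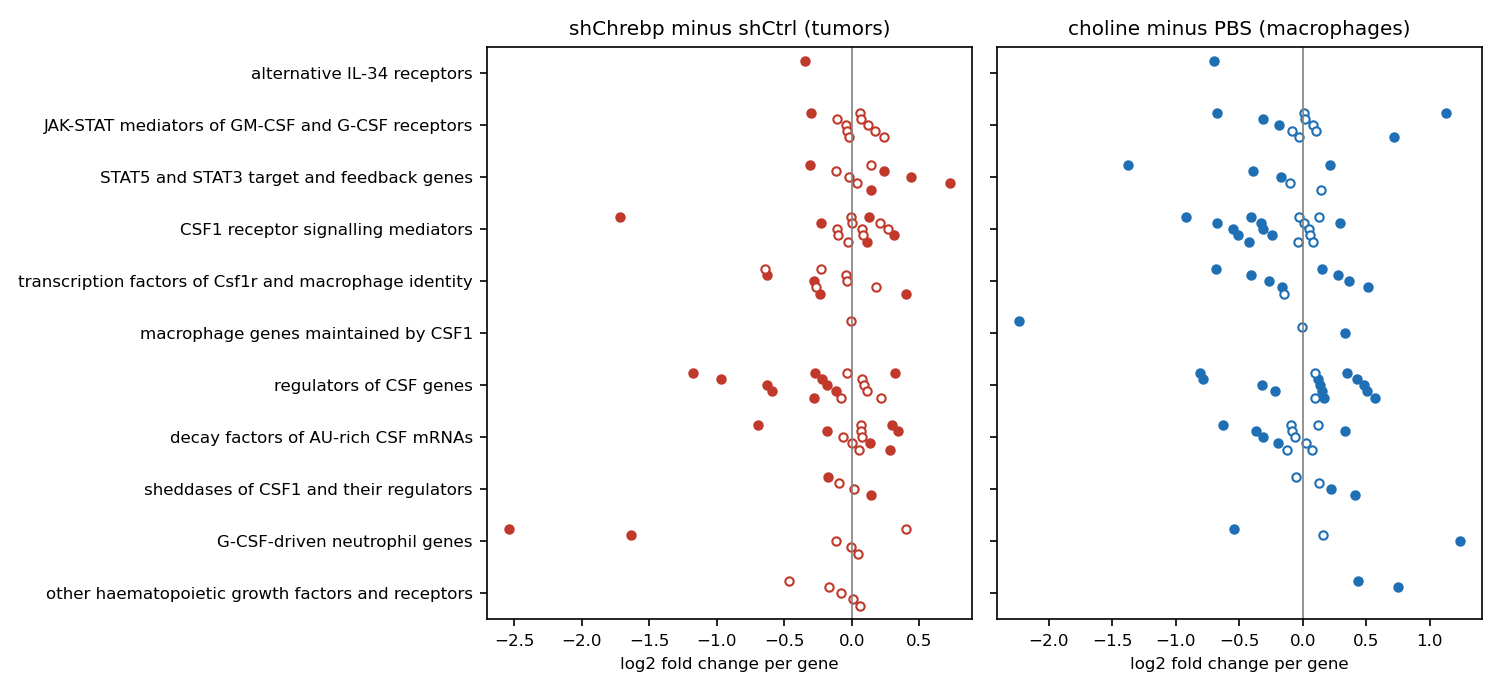
Log2 fold change of each tested gene of the related lists, 1 row per list, in tumors (left) and BMDM (right); filled points were called. CSF1 receptor signalling mediators lie mostly left of 0 in BMDM (median −0.24), and the regulators of CSF genes lie mostly left of 0 in tumors (median −0.15) and mostly right of it in BMDM (median 0.14).

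Likeness of pattern was measured as the root mean square difference of log2(FPKM + 0.1), centred on the control mean, over the 6 libraries of a table and among genes of at least 10 FPKM. In tumors the genes most like Csf1 were Ptgs2 (0.0405), Parp10 (0.0490) and Ttc39c (0.0558), of 6654. In BMDM they were Saa3 (0.175), Acot2 (0.181) and Car6 (0.218), of 5254. For Csf2rb2 the nearest were Psmd10 (0.0174), Atp6v1d (0.0289) and Myd88 (0.0338), and for Csf3 they were Nit2 (0.0316), Gpt (0.0330) and Rbm10 (0.0334). Csf2ra was nearest to Trmt1 (0.0277), Acp6 (0.0285) and Arfrp1 (0.0379), and Csf2rb to Pde6d (0.0307), Ccdc25 (0.0307) and Supt20 (0.0317). These are descriptions over 6 libraries, and the distances of Csf1 in BMDM were larger than those of the other members.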

How the data were processed

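RNA-seq was made from total RNA extracted with TRIzol, with the VAHTS Universal V6 kit, per the labels' protocols. The submitters' processing notes name GRCm39. The sources used here do not give the aligner, the counter or any use of strand. The deposited tumor table has an estimated count and an FPKM value for each Ensembl gene and library, per the file headers; 92% of these counts are exactly whole (tolerance 0), and all were rounded before the tests. The deposited BMDM table has FPKM by symbol. Tumor rows were named by identifier (22219 of 22274), BMDM rows by symbol; 2 BMDM lines without a name were left out. Whole reads were recovered from the FPKM steps in 19494 of 19496 BMDM rows (100%, tolerance 0.1 reads). With gene lengths limited to 20 kb, as a check, 497 of 500 rows were recovered against 0 of 500 shuffled rows. On the recovered reads edgeR called 6425 of 12271 genes. Replicates were grouped by title and treatment label; 2 PBS columns share a heading and are used as PBS a and b.

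Tumor counts were tested with edgeR's quasi-likelihood test (edgeR 4.0.16, R 4.3.3; TMM, robust, filterByExpr). BMDM FPKM were tested with limma-trend (limma 3.58.1, robust) on log2(FPKM + 0.1) for genes of at least 1 FPKM in 3 libraries; this scale understates changes of low genes. Adjustment was by Benjamini-Hochberg over all genes tested, with a threshold of 0.05. Fold changes are ± SE. Members under the filter were compared by exact binomial tests of summed counts and exact two-sided permutation tests of group means. The scripts were tested on simulated data. Alternatives were DESeq2 1.42.0, other scalings, filters and pseudocounts, the replicate block and leaving out each library. Members, lists and settings were chosen with earlier results of these data known. Named list genes are up to 4 called members per list with the smallest adjusted p, plus Il3ra, Il5ra, Cish, Socs1, Socs2, Socs3, Stat5a, Stat5b, Spi1, Zfp36 and Zc3h12a; some genes that this rule takes are not reported here. Transcript lengths and coding sequences came from GENCODE vM21 and promoters from RefSeq, both on GRCm38, a build other than that of the files.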

Additional observations from a re-analysis of the deposited data

How the results depend on the processing

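The number of tumor members called was 1 and became 2 without the low-count filter, where Csf2 was added at up to 7 counts per library. Leaving out each library kept it at 1. The count for tumor lists, 35 of 86 tested genes, was 30 to 38 over the alternatives. In BMDM 5 members were called, 4 to 5 on leaving out libraries, Csf2rb being the one lost, and lists gave 52 of 81, with 49 to 56 over the alternatives. With the replicate block in tumors, 1 member and 35 list genes were called. No pairing by replicate number was seen. Same-numbered libraries had correlations of 0.06, −0.06 and −0.03, and not every library correlated best with its own number. With 3 libraries per group such correlations cannot exclude a pairing. No paired analysis was possible for BMDM because 2 PBS columns carry the same heading.

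Of the list genes tested by name, 26 of 32 in tumors and 30 of 35 in BMDM kept direction and side of the threshold under every alternative. Those that changed sign were uncalled. Without the low-count filter, tumor Cish was at 0.0028 and Stat5b at 0.00016. On leaving out libraries, tumor Cish ran from −0.13 to 0.16, Socs1 from −0.28 to 0.0041, Socs2 from −0.0060 to 0.30 and Stat5b from −0.055 to 0.035, and BMDM Stat5a ran from −0.10 to 0.011 and Zfp36 from −0.0063 to 0.056. Calls ended for Adam10 in tumors without shCtrl 2 or shChrebp 2, for Ets2 in tumors on FPKM, for Adam10 in BMDM with no low-value filter or without Choline 3, for Bcl2l1 in BMDM without PBS 1 or Choline 3, and for Flt3l on recovered reads. The cause was not tested. Depth limits the tumor receptors, Csf2 and Csf3 to a few counts per library.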
